A study of Mus musculus with 12 samples.

Results

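The subject is the effect of the Huntington's disease knock-in allele on the striatal transcriptome of mice that keep cGAS, read from the 3 HD libraries against the 3 WT libraries, 6 of the 12 libraries of the series. Genes entered when at least 10 counts were recorded in at least 3 of those 6 libraries, which kept 20470 of the 55487 genes listed. The HD mice were zQ175 neo-deleted knock-ins, heterozygous for an expanded CAG repeat inside the mouse Htt gene, and the WT mice were C57BL/6J controls. Both groups carried intact Cgas, the gene of a sensor of DNA in the cytosol. The other 6 libraries came from Q175DN-cGAS-KO double mutants, called cGAS-KO;HD, and from cGAS-KO mice. They entered the fit to share its estimate of the spread, and they serve below as a pair of groups that carries the same contrast without cGAS. The labels name 3 mice per group and give neither sex, age, litter nor clock time of collection, so p-values measure the spread among these mice.

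Huntington's disease is caused by a lengthened run of glutamines in huntingtin, and the striatum is the brain region that degenerates first. Most striatal neurons are medium spiny neurons, inhibitory projection cells that receive cortical glutamate and midbrain dopamine and carry those signals through G protein-coupled receptors, cyclic AMP, calcium and phosphatases. Loss of their identity transcripts and release of silenced developmental genes are known features of knock-in mouse models.

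Total counts lay between 59195327 and 71859743 in the 6 libraries, and 27492 to 28348 genes had a count. All 16 defining genes of medium spiny neurons were measured, and their summed level was 2227, 1716 and 1172 CPM, which are counts scaled to library size, in HD replicates 1, 2 and 3, against 2996, 3529 and 4039 CPM in WT replicates 1, 2 and 3, so the groups did not overlap. Values of single libraries follow this replicate order throughout. Marker levels of other regions and cell types differed between libraries, and the cause was not tested. Genes of thalamic, septal and pallidal neurons summed to 893, 1214 and 1671 CPM in HD and 1092, 634 and 434 CPM in WT. Cortical projection neuron genes summed to 259, 335 and 355 CPM in HD and 253, 750 and 857 CPM in WT, and choroid plexus genes to 986, 2228 and 333 CPM in HD and 2057, 164 and 89.7 CPM in WT. HD replicate 3 thus had the lowest level of medium spiny genes and the highest of thalamic genes. WT replicate 1 stood with the HD libraries in the cortical, thalamic and choroid lists. Of the 16 medium spiny genes 10 were called lower in the comparison and 6 were not called, and the highest log2 change of HD over WT was 0.19. No member of the cortical, thalamic, choroid plexus or microglial lists was called in the comparison. Their median log2 changes of HD over WT were still -1.9, 0.79, 0.27 and -0.13, so the absence of calls does not mean equal levels. WT replicate 1 was also far from the other 2 WT libraries over all genes, at a chi-square per gene of 45.9 and 73.1 against 8.61 between WT replicates 2 and 3. Xist, which coats the silenced X chromosome, had high levels in HD replicates 1 and 2 and in WT replicate 1, and low levels in HD replicate 3 and WT replicates 2 and 3. The part of these differences in the results below was not tested beyond the fits named beside them.

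**Figure D1:**
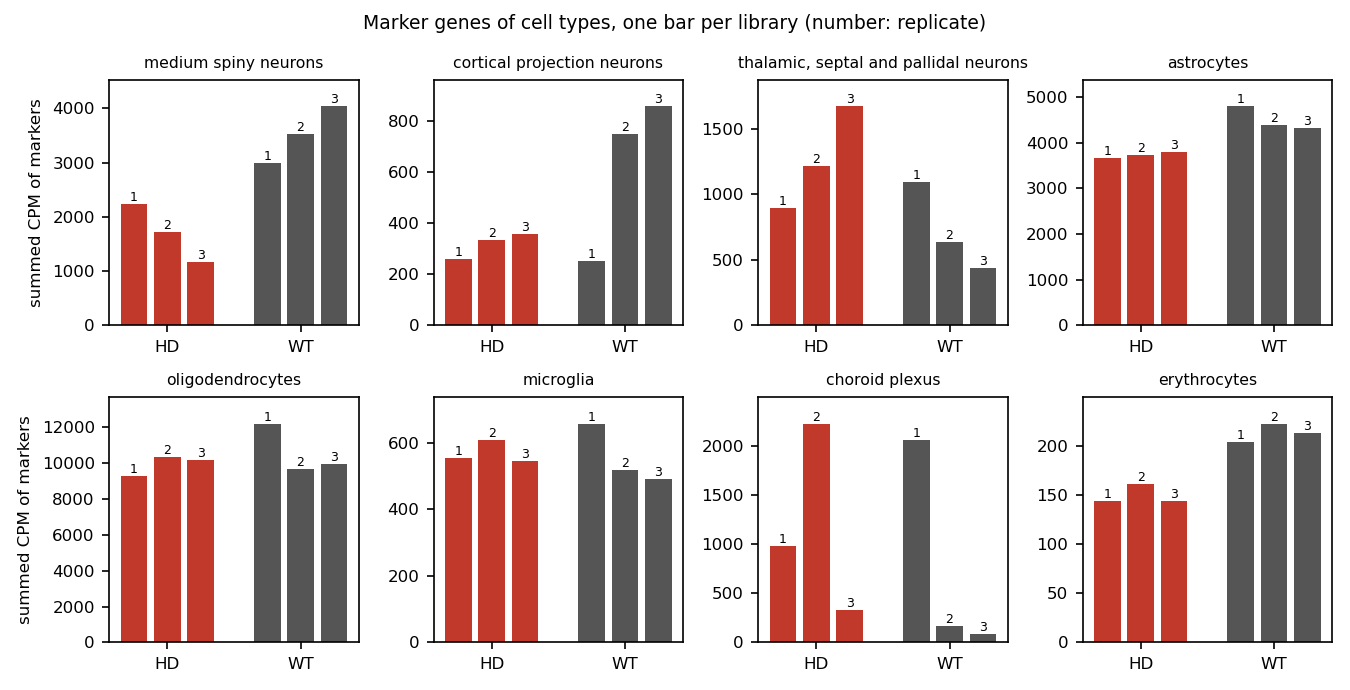
Summed CPM of the marker genes of 8 cell types (vertical axis) in each of the 3 HD libraries (left, red) and each of the 3 WT libraries (right, grey), with the replicate number above each bar. Medium spiny genes were lower in all 3 HD libraries, cortical and choroid plexus genes differed most between WT replicate 1 and the other 2 WT libraries, and oligodendrocyte and microglial genes overlapped between the groups.

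The knock-in allele went with more losses than gains. With the quasi-likelihood test of edgeR at a p under 0.05 after Benjamini-Hochberg adjustment over all 20470 genes, called the edgeR adjusted p below, 890 genes were called (4.35%), of which 629 were lower (3.07%) and 261 higher (1.28%) in HD. The values of both groups did not overlap for any of the 890, which was also so for 5706 genes in all (27.9%). Non-overlap of a called gene, where given below, therefore adds no support to its call. The count filter was passed through the HD libraries alone by 54 genes, of which 20 were called. It was passed through the WT libraries alone by 61 genes, of which 23 were called. Such genes could hardly have been found changed in the other direction. Most changes were small. Among called genes the median log2 change was -0.77 for those lower and 0.60 for those higher, 218 lower and 77 higher genes passed 2-fold, and 42 lower and 13 higher genes had a fitted log2 change between 2 and 3 in size. The called lower genes took 5.35%, 4.98% and 4.57% of all counts in HD, against 6.77%, 7.80% and 8.43% in WT, and the called higher genes 1.02%, 1.09% and 1.10% in HD, against 0.796%, 0.723% and 0.712% in WT. The count of calls rested on single libraries. It was 246 without HD replicate 2, 287 without HD replicate 3, 280 without WT replicate 3 and 296 without WT replicate 2, but 1527 without WT replicate 1 and 1936 without cGAS-KO replicate 3, and every called gene that could be tested kept its direction in all of these fits. A core of 199 genes (143 lower, 56 higher) was called without each of the 12 libraries in turn. Genes named with values below belong to that core unless another adjusted p, or a fit in which they could not be tested, is given beside them.

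**Figure D2:**
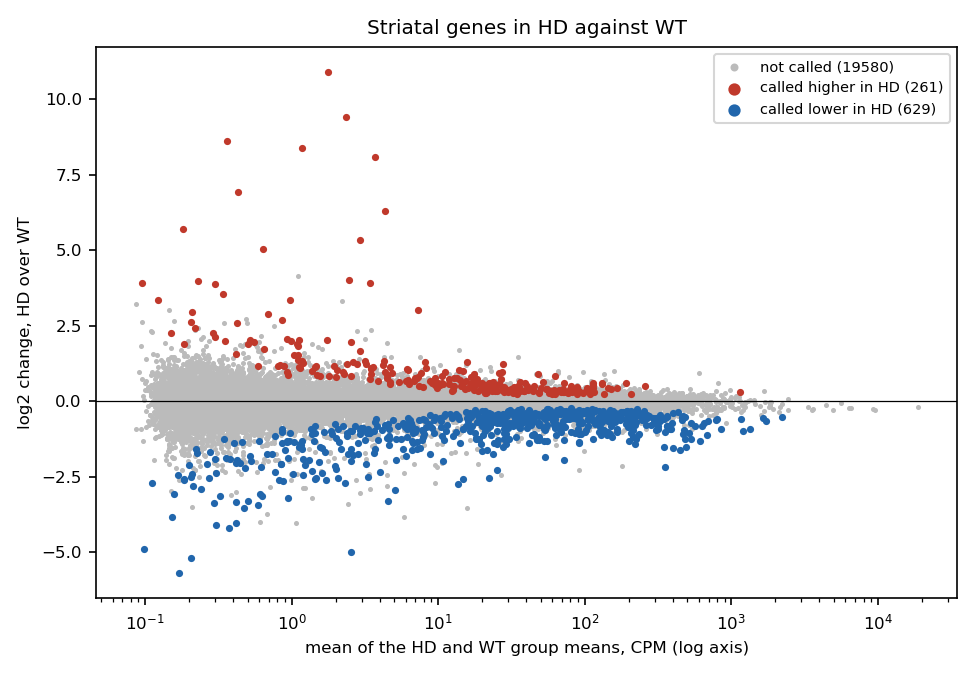
Log2 change of HD over WT (vertical axis) against the mean level of both groups in CPM (horizontal log axis) for 20470 genes, with called higher genes in red, called lower genes in blue and the rest in grey. Called lower genes reach to high levels, whereas the largest positive values belong to genes near 0 CPM in WT, where the fitted size depends on the fit's prior count.

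The strongest gains were in genes that were silent or low in WT striatum. C130021I20Rik, an antisense RNA gene, had 9.79, 8.30 and 7.51 CPM in HD, against 0.180, 0.0689 and 0.0713 CPM in WT (log2 change 6.29 ± 0.33, SE; edgeR adjusted p = 2.67e-06). Lmx1b, a homeodomain factor of midbrain dopamine and serotonin neurons in the embryo, had 6.86, 5.81 and 4.38 CPM in HD, against 0.269, 0.0345 and 0.0999 CPM in WT (5.35 ± 0.43, adjusted p = 3.27e-05). All HD libraries lay above all WT libraries in both genes, by more than 10 times, and WT replicate 1 was the highest WT library. They stand back to back on chromosome 2, with RefSeq starts 95 bases apart on opposite strands. Tmc3, a member of the transmembrane channel-like family, had 13.1, 11.1 and 14.8 CPM in HD, against 1.84, 1.26 and 1.70 CPM in WT (3.02 ± 0.19, adjusted p = 5.17e-06). The HD libraries again stood apart from WT, where the gene was low but present, and its span overlaps Gm16638 on the other strand. Mid1-ps1, a pseudogene of Mid1 annotated on chromosome Y, had 6.93, 5.47 and 6.82 CPM in HD, against 0.494, 0.396 and 0.371 CPM in WT (3.92 ± 0.25, adjusted p = 5.17e-06). Mid1 itself was not called, and reads of near-identical copies can be divided between such genes in ways the deposited counts do not show.

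Other gains were smaller and in genes already active in WT. Enpp6, a choline phosphodiesterase of newly formed oligodendrocytes, had 37.5, 36.3 and 42.7 CPM in HD, against 15.8, 17.7 and 16.5 CPM in WT (1.22 ± 0.10, edgeR adjusted p = 3.27e-05). Zfp488, a zinc finger factor that promotes oligodendrocyte differentiation, had 11.3, 12.0 and 11.3 CPM in HD, against 5.73, 4.26 and 3.92 CPM in WT (1.31 ± 0.14, adjusted p = 0.00028). Neither gene overlapped between the groups. The summed oligodendrocyte markers did, at 9296, 10360 and 10150 CPM in HD and 12200, 9672 and 9936 CPM in WT. The summed oligodendrocyte precursor markers did not, at 410, 449 and 454 CPM in HD and 385, 324 and 304 CPM in WT. Of those 8 markers 1 was called higher, with a median log2 change of 0.24 and a lowest of -0.18. Whether Enpp6 and Zfp488 moved with the precursor markers was not tested. Sema3d, a secreted guidance cue, had 18.1, 19.0 and 18.8 CPM in HD, against 9.36, 9.43 and 8.26 CPM in WT (1.05 ± 0.09, adjusted p = 9.55e-05). Chdh, which oxidises choline to betaine aldehyde in mitochondria, had 21.6, 23.2 and 22.7 CPM in HD, against 8.94, 9.65 and 8.97 CPM in WT (1.29 ± 0.12, adjusted p = 0.000126), and its annotated span overlaps Cacna1d on the other strand. Folh1, a peptidase that splits N-acetylaspartylglutamate, averaged 21.5 ± 1.54 CPM in HD and 12.2 ± 1.61 CPM in WT (0.82 ± 0.11, adjusted p = 0.00157). Sema3d, Chdh and Folh1 were each higher in every HD library than in any WT library. Psat1, an enzyme of serine synthesis, averaged 191 ± 5.39 CPM in HD and 140 ± 5.65 CPM in WT (0.44 ± 0.07, adjusted p = 0.00346). Polr2a, the large subunit of RNA polymerase II, averaged 157 ± 3.29 CPM in HD and 106 ± 6.54 CPM in WT (0.57 ± 0.09, adjusted p = 0.00385). The spread within each group was small against these differences, and no library of one group reached into the range of the other.

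The strongest losses included genes of calcium, ion transport and cell death. Ryr1, a calcium release channel of the endoplasmic reticulum whose span overlaps Gm26604 on the other strand, had 10.4, 7.58 and 7.74 CPM in HD, against 39.0, 39.7 and 45.8 CPM in WT (-2.27 ± 0.13, edgeR adjusted p = 2.67e-06). Slc4a11, a membrane transporter of the bicarbonate transporter family, had 1.31, 1.15 and 1.03 CPM in HD, against 9.13, 8.5 and 9.36 CPM in WT (-2.95 ± 0.19, adjusted p = 5.17e-06). Ptprv, a tyrosine phosphatase gene annotated here as a processed transcript, had 5.16, 3.60 and 3.85 CPM in HD, against 22.4, 24 and 29.4 CPM in WT (-2.59 ± 0.17, adjusted p = 5.17e-06). In these 3 genes every HD library lay more than 3 times below the lowest WT library. Hrk, a pro-apoptotic BH3-only protein of neurons, had 12.2, 10.4 and 10.1 CPM in HD, against 29.0, 38.0 and 42.7 CPM in WT (-1.75 ± 0.14, adjusted p = 3.22e-05). Sec14l3, a lipid-binding protein, had 0.712, 1.35 and 0.923 CPM in HD, against 5.15, 5.58 and 6.14 CPM in WT (-2.50 ± 0.21, adjusted p = 5.16e-05). Abhd11os, which lies opposite Abhd11, had 1.70, 1.11 and 1.11 CPM in HD, against 6.68, 6.34 and 7.06 CPM in WT (-2.36 ± 0.18, adjusted p = 3.19e-05). Hrk, Sec14l3 and Abhd11os were separated between the groups as well, with WT replicate 1 the nearest to HD for Hrk. Gpx6, a glutathione peroxidase, nearly vanished, at 0.307, 0.146 and 0.0132 CPM in HD, against 5.45, 4.07 and 5.29 CPM in WT (-4.99 ± 0.51, adjusted p = 0.000305). Dbp, an output transcription factor of the circadian clock that overlaps Sphk2 on the other strand, had 70.7, 66.2 and 61.8 CPM in HD, against 132, 131 and 138 CPM in WT (-1.01 ± 0.07, adjusted p = 8.62e-06). The spread of Dbp was narrow in both groups. In bulk tissue, fewer cells of a type and less RNA per cell cannot be told apart.

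**Figure D3:**
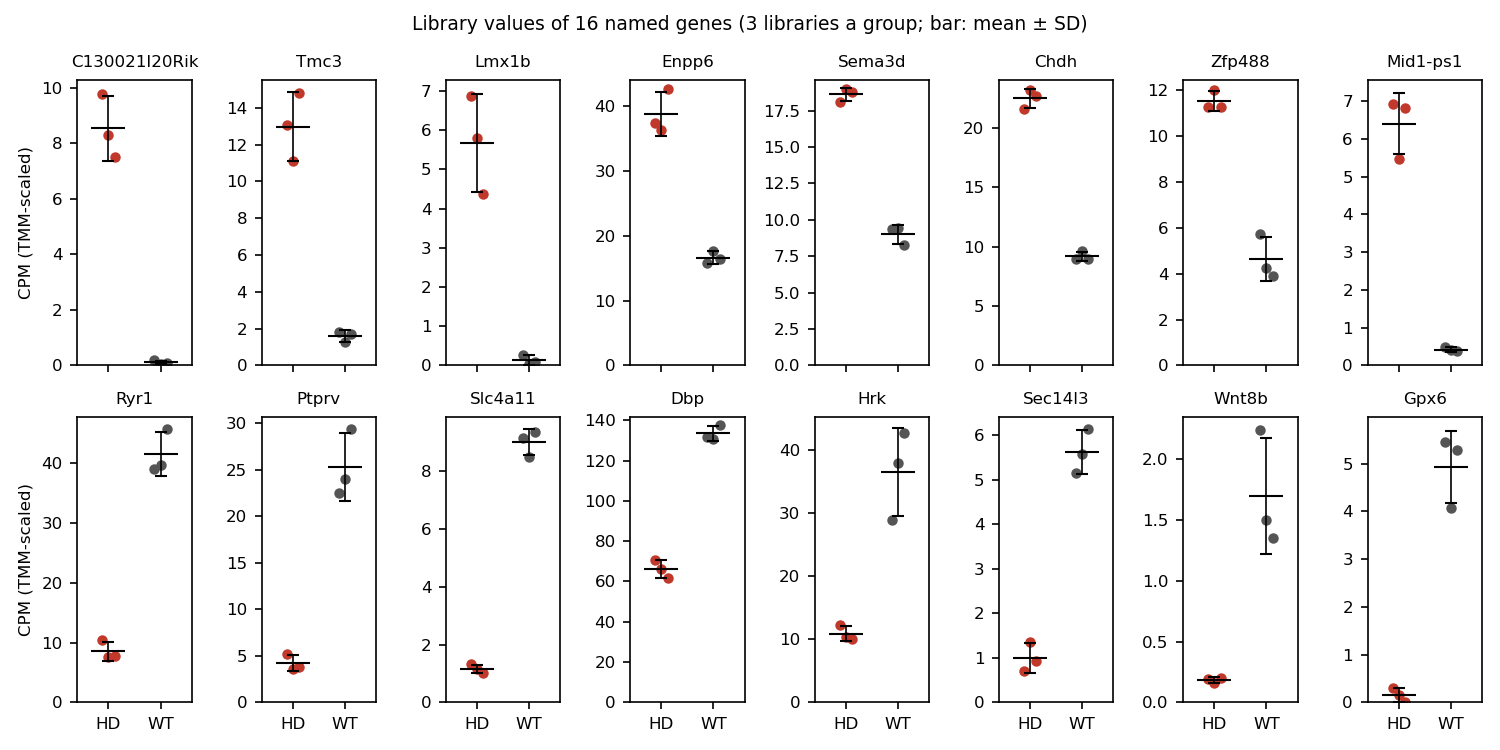
CPM after TMM scaling (vertical axis, from 0) of 8 genes called higher (top row) and 8 called lower (bottom row) in HD, with 3 HD libraries on the left of each panel, 3 WT libraries on the right, and the mean ± SD. HD and WT libraries do not overlap in any panel, and C130021I20Rik, Lmx1b and Mid1-ps1 lie under 1 CPM in all 3 WT libraries.

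The promoters of these genes were unlike each other. Each line below gives 300 bases around the RefSeq start (GRCm38.p6), 250 before it and 50 after it, 5′ to 3′ on the gene's strand, for the 2 genes in each direction with the smallest p among those matched to a RefSeq promoter and averaging at least 1 CPM, and capitals mark CG dinucleotides. The windows lie at chr2:33640943-33641242 (plus strand), chr7:83584681-83584980 (plus strand), chr7:29125102-29125401 (minus strand) and chr7:45704997-45705296 (plus strand).
C130021I20Rik: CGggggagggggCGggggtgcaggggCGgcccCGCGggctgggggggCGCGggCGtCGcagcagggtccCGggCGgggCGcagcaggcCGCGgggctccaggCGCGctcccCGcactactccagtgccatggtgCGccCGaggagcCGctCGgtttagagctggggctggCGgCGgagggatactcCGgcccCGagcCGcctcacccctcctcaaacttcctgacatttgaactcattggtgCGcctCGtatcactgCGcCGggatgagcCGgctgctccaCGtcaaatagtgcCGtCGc
Tmc3: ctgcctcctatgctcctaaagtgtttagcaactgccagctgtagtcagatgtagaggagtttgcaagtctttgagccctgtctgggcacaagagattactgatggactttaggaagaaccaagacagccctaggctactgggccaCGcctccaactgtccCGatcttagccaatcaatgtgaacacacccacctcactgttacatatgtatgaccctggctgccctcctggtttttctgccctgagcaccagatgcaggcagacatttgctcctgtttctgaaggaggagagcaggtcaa
Ryr1: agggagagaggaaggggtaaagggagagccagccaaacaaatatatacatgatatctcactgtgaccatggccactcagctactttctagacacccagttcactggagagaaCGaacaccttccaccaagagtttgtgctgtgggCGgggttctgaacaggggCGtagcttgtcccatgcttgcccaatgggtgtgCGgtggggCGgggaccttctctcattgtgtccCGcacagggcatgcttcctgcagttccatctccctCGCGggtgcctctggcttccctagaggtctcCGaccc
Dbp: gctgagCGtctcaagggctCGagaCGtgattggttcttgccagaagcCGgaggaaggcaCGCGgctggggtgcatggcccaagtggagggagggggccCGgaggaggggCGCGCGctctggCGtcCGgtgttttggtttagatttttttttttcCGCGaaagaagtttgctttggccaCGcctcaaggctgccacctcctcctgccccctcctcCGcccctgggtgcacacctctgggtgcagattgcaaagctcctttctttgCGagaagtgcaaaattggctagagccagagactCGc
C130021I20Rik starts in a CG-dense stretch with 34 CG and 73.3% G or C, and 194 bases of it are shared with the window of Lmx1b on the other strand. Tmc3, the other strong gain, has 2 CG in its window, Ryr1 has 9 and Dbp has 18, so the pair of gains and the pair of losses did not each share a type of start. Over the 13313 tested genes with a promoter entry the median number of CG was 19, and it was 17 for the 195 called higher and 19 for the 441 called lower. Called genes past 2-fold had fewer, with a median of 10.5 for the 54 higher and 10.0 for the 143 lower, and their share of windows with under 5 CG was 16.7% and 26.6%, against 11.9% over all. Level was not held equal in these comparisons, and no test was made.

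Letters of known factor motifs were then counted on both strands of the same windows. The D-box TTATGTAA, which Dbp and its relatives bind, was in 7 of 441 windows of called lower genes (1.59%), in 0 of 195 of called higher genes and in 0.623% of all windows. The 7 included Per3, a clock repressor, and Sec14l3 and Myo18a, the last an unconventional myosin with an edgeR adjusted p of 0.0135, and of 0.0811 without HD replicate 2. The cyclic AMP element TGACGTCA, bound by Creb, was in 1.59% of windows of lower genes, 1.54% of those of higher genes and 2.96% of all, and its inner part TGACG, which also lies inside every full element, in 21.1%, 24.6% and 29.1%. The E-box CACGTG, bound by clock and Myc factors, was in 9.75%, 8.72% and 9.46%, the GC box GGGCGG in 59.9%, 56.9% and 59.4%, and the TATA box TATAAA in 7.48%, 8.72% and 7.91%. These shares describe the letters in 300 bases and were not tested. Back-to-back starts were counted next, without a test. Of 617 pairs of tested autosomal genes with RefSeq starts under 300 bases apart on opposite strands, 24 held a called gene (3.89%), and of the 1231 genes in these pairs 2.19% were called, against 4.79% of the 12816 autosomal genes with a promoter entry. In 3 pairs both members were called, each time both higher. These were C130021I20Rik with Lmx1b, Chdh with Il17rb at a distance of 104 bases, and Gm15663 with Tmtc2 at 72 bases, named because they were so few. The last pair was not called without WT replicate 3, at an edgeR adjusted p of 0.131 for Gm15663 and 0.169 for Tmtc2. Il17rb, a receptor for interleukin 25, had 4.34, 3.92 and 5.25 CPM in HD, against 1.80, 1.77 and 2.11 CPM in WT (1.25 ± 0.18, edgeR adjusted p = 0.00266).

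Receptors that signal through G proteins held losses and, with all libraries, no gains. Gene families were formed by symbol, and of 185 tested G protein-coupled receptors 18 were lower and 0 higher, and the median log2 change was -0.12, against 0.000456 over all 20470 genes, of which 3.07% were called lower. Leaving out 1 library gave 6 to 30 lower and 0 to 8 higher receptors, the fewest lower without HD replicate 2 and the most of both without cGAS-KO replicate 3. Adora2a, the adenosine receptor of indirect-pathway neurons, had 38.2, 29.3 and 21.5 CPM in HD, against 90.2, 117 and 138 CPM in WT (-1.95 ± 0.20, edgeR adjusted p = 0.000353). Hrh3, a histamine receptor, had 48.3, 52.6 and 59.6 CPM in HD, against 96.6, 112 and 113 CPM in WT (-1.01 ± 0.11, adjusted p = 0.000314). The orphan-family receptor Gpr83 had 39.6, 28.5 and 23.2 CPM in HD, against 64.5, 76.9 and 83.9 CPM in WT (-1.30 ± 0.17, adjusted p = 0.00161). In Adora2a and Gpr83 the HD libraries ranked in the same order as the summed medium spiny markers, whereas Hrh3 ran the other way within HD, highest in replicate 3. Adora2a is itself part of that sum, so its order is not independent of it. Among the 21 tested RGS genes, whose proteins switch off G protein signals, 5 were lower and 0 higher (median -0.21), and 3 to 7 were lower with 1 library left out, the most without cGAS-KO replicate 3. They included Rgs9 (115 ± 33.0 CPM in HD and 284 ± 38.2 CPM in WT; -1.31 ± 0.18, adjusted p = 0.00208), Rgs14 (15.9 ± 3.48 CPM in HD and 42.2 ± 7.59 CPM in WT; -1.41 ± 0.16) and Rgs11 (20.3 ± 1.77 CPM in HD and 37.1 ± 2.02 CPM in WT; -0.87 ± 0.10), which overlaps Arhgdig on the other strand. The cyclase Adcy5, the main source of cyclic AMP in medium spiny neurons, had 386, 339 and 282 CPM in HD, against 602, 702 and 766 CPM in WT (-1.04 ± 0.15, adjusted p = 0.00202). Of 21 phosphodiesterases, which break cyclic nucleotides down, 3 were lower and 0 higher. Pde10a had 334, 253 and 187 CPM in HD, against 592, 744 and 858 CPM in WT (-1.5 ± 0.19, adjusted p = 0.00115). Pde1b averaged 302 ± 50.6 CPM in HD and 637 ± 85.5 CPM in WT (-1.08 ± 0.15, adjusted p = 0.00194). Both arms of cyclic nucleotide turnover, synthesis and breakdown, thus held called losses, and Gucy2f, a guanylate cyclase known from photoreceptors, was higher at 4.30, 4.25 and 5.15 CPM in HD, against 1.69, 1.53 and 2.20 CPM in WT (1.33 ± 0.18, adjusted p = 0.00169).

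Losses outnumbered gains among kinases as well. Of 37 genes of the protein kinase A, C, G and calmodulin kinase groups, 8 were lower (21.6%) and 2 higher (5.41%). The shares over all genes were 3.07% and 1.28%, and the median of the 37 was -0.15. The lower count was 2 without HD replicate 2 and 13 without WT replicate 1 or without cGAS-KO replicate 3. Camk2b, a subunit of the synaptic calcium-dependent kinase, had 582, 527 and 501 CPM in HD, against 743, 862 and 919 CPM in WT (-0.65 ± 0.09, edgeR adjusted p = 0.00281). Camkv, a kinase-like protein of synapses, averaged 263 ± 23.3 CPM in HD and 463 ± 62.0 CPM in WT (-0.81 ± 0.13, adjusted p = 0.00377). Camk2n1, an inhibitor of that kinase, averaged 585 ± 34.1 CPM in HD and 1116 ± 261 CPM in WT (adjusted p = 0.0166, and 0.0964 without HD replicate 3). HD libraries were below WT libraries in all 3 genes. Rasgrp2, an exchange factor for Rap, had 68.5, 59.2 and 54.5 CPM in HD, against 115, 129 and 142 CPM in WT (-1.08 ± 0.11, adjusted p = 0.000248). Rasd2, the striatal GTPase Rhes, averaged 132 ± 30.4 CPM in HD and 315 ± 52.7 CPM in WT (-1.26 ± 0.16, adjusted p = 0.00118). The groups did not overlap in Rasgrp2 or Rasd2. The calcineurin subunit Ppp3ca, a phosphatase of dopamine signalling, averaged 925 ± 185 CPM in HD and 1759 ± 335 CPM in WT (adjusted p = 0.0118, and 0.0783 without HD replicate 3).

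Ion channels and synaptic proteins held mostly losses. Cntn6, a contactin (edgeR adjusted p = 0.0339, and 0.167 without WT replicate 3), was the 1 gene called higher among the channel, receptor, scaffold, vesicle and synaptic adhesion families, and single libraries left out brought 0 to 2 higher genes in each of these families, the 2 mostly without cGAS-KO replicate 3. Of 80 potassium channel genes 11 were lower (13.8%, against 3.07% over all genes) and 0 higher (median -0.16). The lower count was 4 without HD replicate 2, WT replicate 2 or WT replicate 3 and 22 without WT replicate 1. Kcnh4 had 11.8, 10.5 and 6.51 CPM in HD, against 25.9, 31.2 and 32.8 CPM in WT (-1.65 ± 0.21, edgeR adjusted p = 0.00152). Kcnip2, a potassium channel partner, averaged 67.3 ± 18.9 CPM in HD and 162 ± 30.0 CPM in WT (-1.27 ± 0.19, adjusted p = 0.00377). Kcnt1, a sodium-activated channel, averaged 137 ± 8.99 CPM in HD and 210 ± 22.7 CPM in WT (-0.62 ± 0.10, adjusted p = 0.0042). In these 3 genes no HD library reached the WT range. Scn4b, a sodium channel subunit, had 132, 135 and 114 CPM in HD, against 484, 560 and 685 CPM in WT (-2.18 ± 0.20, adjusted p = 0.000171). It was the member called among 14 sodium channel genes. Its HD libraries were close together and more than 3 times below the lowest WT library. Of 26 voltage-gated calcium channel genes 5 were lower, a count that went to 0 without HD replicate 2, HD replicate 3, WT replicate 2 or WT replicate 3 and to 10 without cGAS-KO replicate 3. Of 22 calcium release channels and pumps 4 were lower, and Ryr1 was the one left without any of those 4 libraries. Of 19 ionotropic glutamate receptor genes 3 were lower and 0 higher, 1 to 7 with a library left out (most without cGAS-KO replicate 3), and the kainate subunit Grik5 had 135, 122 and 117 CPM in HD, against 164, 200 and 216 CPM in WT (-0.64 ± 0.10, adjusted p = 0.00468). Of 29 postsynaptic scaffolds 5 were lower and 0 higher (median -0.23), among them Dlg4, the scaffold PSD-95, at 396 ± 25.6 CPM in HD and 573 ± 58.9 CPM in WT (adjusted p = 0.0103, and 0.0757 without HD replicate 3). The scaffold count was 0 without HD replicate 2 and 8 without WT replicate 1 or cGAS-KO replicate 3. The shares called lower were 19.2% for voltage-gated calcium channels, 18.2% for calcium release channels and pumps, 15.8% for glutamate receptors and 17.2% for scaffolds. Of 21 GABA and glycine receptor genes 1 was lower, Gabrd, a subunit of extrasynaptic GABA receptors, at 34.1, 36.8 and 38.4 CPM in HD, against 51.7, 61.4 and 67.5 CPM in WT (-0.73 ± 0.13, adjusted p = 0.00821). Penk, the precursor of enkephalin peptides of the indirect pathway, had 278, 194 and 131 CPM in HD, against 520, 592 and 669 CPM in WT (-1.56 ± 0.22, adjusted p = 0.00305). The HD libraries of Penk lay below every WT library. They followed the order of the summed medium spiny markers, but Penk is itself part of that sum. Cortical projection neuron genes, which carry many channels and synaptic proteins, were lower in WT replicate 1 than in the other WT libraries, as given above, and their part in these counts was not tested.

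Clock genes had the highest share of calls among families of at least 18 tested genes. Of 18 tested clock and PAR bZIP factors 8 were lower and 0 higher (44.4%, median -0.46), against 3.07% lower over all genes. The lower count was 4 without HD replicate 2, HD replicate 3 or WT replicate 3 and 12 without cGAS-KO replicate 3. Beside Dbp, the repressor Ciart, which overlaps C920021L13Rik on the other strand, had 10.4, 11.0 and 11.3 CPM in HD, against 23.1, 24.4 and 28.8 CPM in WT (-1.22 ± 0.10, edgeR adjusted p = 5.16e-05). Per3 had 49.1, 45.4 and 46.3 CPM in HD, against 65.5, 73.1 and 84.2 CPM in WT (-0.66 ± 0.09, adjusted p = 0.00202). The repressor Bhlhe41 had 53.6, 53.2 and 52.3 CPM in HD, against 72.6, 65.7 and 68.7 CPM in WT (-0.38 ± 0.07, adjusted p = 0.00752). WT replicate 1 was the lowest WT library in Ciart and Per3, as in the summed medium spiny markers, but the highest in Bhlhe41 and between the others in Dbp. Npas2, a partner of the clock activator that is abundant in forebrain, averaged 27.6 ± 4.5 CPM in HD and 60.2 ± 12.4 CPM in WT (adjusted p = 0.0106, and 0.07 without HD replicate 3). Clock genes follow the time of day, which is not given here, so a difference in collection time and the genotype cannot be told apart.

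Transcription factors of other families went both ways. Of 82 homeobox genes outside the Hox clusters 5 were higher (6.1%) and 4 lower (4.88%), against 1.28% and 3.07% over all genes. Of the 82, 2 passed the count filter through the HD libraries alone, so that they could hardly have been found lower. Leaving out 1 library gave 1 to 13 higher (fewest without HD replicate 2 or 3, most without WT replicate 1) and 1 to 8 lower (most without cGAS-KO replicate 3). Pou3f1, a POU factor of neurons, had 22.3, 19.7 and 16 CPM in HD, against 33.9, 35.9 and 40.3 CPM in WT (-0.93 ± 0.13, edgeR adjusted p = 0.00202). Pax2, an embryonic patterning factor, had 1.59, 1.40 and 0.738 CPM in HD, against 0.0299, 0.0517 and 0.0285 CPM in WT (5.03 ± 0.60, adjusted p = 0.000816), and without any 1 HD library it had too few counts to be tested. Of 39 Hox genes in the files 7 were tested, and 6 of those passed the count filter through the HD libraries alone, so that they could hardly have been found lower. Hoxc4, a patterning factor of the body axis, had 10.4, 9.27 and 2.48 CPM in HD, against 0.0150, 0 and 0.0571 CPM in WT, and Hoxc8 had 5.05, 4.83 and 0.751 CPM in HD, against 0, 0 and 0 CPM in WT. The 5 called, Hoxc4, Hoxc5, Hoxc6, Hoxc8 and Hoxc9, had too few counts to be tested without any 1 HD library, so that no Hox gene was called in those 3 fits, and Hoxc8 was not called with no low-count filter (edgeR adjusted p = 0.11). HD replicate 3, the library lowest in medium spiny markers, was also the lowest HD library in Hoxc4, Hoxc5, Hoxc6, Hoxc8 and Hoxc9. Of 398 Zfp zinc finger genes 5 were higher and 1 lower (1.51% called, against 4.35% over all genes). Zfp488 was the one called without each library in turn.

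Adhesion, matrix and secreted signals showed both directions too. Of 68 protocadherins 5 were higher (7.35%, against 1.28% over all genes) and 0 lower (median 0.04), and 3 of the 5 were called without each library in turn. Pcdh15 had 53.2, 51.3 and 55.7 CPM in HD, against 37.7, 39.3 and 35.4 CPM in WT (0.51 ± 0.07, edgeR adjusted p = 0.00194). Pcdh11x averaged 47.0 ± 3.19 CPM in HD and 30.7 ± 2.81 CPM in WT (0.61 ± 0.10, adjusted p = 0.00457). Pcdh19 averaged 46.4 ± 2.20 CPM in HD and 35.7 ± 1.10 CPM in WT (0.38 ± 0.06, adjusted p = 0.00637). These 3 are single genes outside the clustered protocadherins, and the clustered genes share exons, so their counts are uncertain. Plxnb3, a semaphorin receptor known in oligodendrocytes, had 72.8, 83.1 and 86.7 CPM in HD, against 48.3, 41.0 and 45.4 CPM in WT (0.85 ± 0.13, adjusted p = 0.00321). Itga5, the fibronectin receptor subunit, went the other way at 4.70, 4.43 and 2.98 CPM in HD, against 12.4, 11.7 and 16.5 CPM in WT (-1.75 ± 0.18, adjusted p = 0.000305), as did Itga9 at 8.39 ± 0.742 CPM in HD and 14.5 ± 1.39 CPM in WT (-0.79 ± 0.11, adjusted p = 0.00178). Of 43 collagens 5 were lower (11.6%, against 3.07% over all genes) and 0 higher. The lower count was 0 without HD replicate 2 and 7 without WT replicate 1. Of 84 genes of Wnt, Fgf, Bmp, Tgf and Igf signalling 5 were lower and 5 higher (5.95% each way). Wnt8b, a ligand best known from the embryonic forebrain, had 0.195, 0.160 and 0.198 CPM in HD, against 2.25, 1.5 and 1.36 CPM in WT (-3.19 ± 0.27, adjusted p = 6.38e-05). Fgf3 averaged 0.810 ± 0.314 CPM in HD and 2.56 ± 0.369 CPM in WT (-1.66 ± 0.26, adjusted p = 0.00405). The receptor Fgfr4 was higher at 1.45, 1.43 and 1.57 CPM in HD, against 0.225, 0.345 and 0.128 CPM in WT (2.68 ± 0.42, adjusted p = 0.00409). These 3 genes were under 3 CPM in each of the 6 libraries, and like every called gene they did not overlap between the groups. With 1 library left out, 1 to 6 genes of this family were higher and 3 to 6 lower, the fewest without WT replicate 2 or 3.

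Immune genes changed in both directions. Of 92 chemokine, interleukin and Tnf family genes 6 were lower (6.52%) and 5 higher (5.43%), against 3.07% and 1.28% over all genes, with 2 of each left without HD replicate 2 or 3 or WT replicate 2 or 3. Il33, an alarmin that oligodendrocytes and astrocytes of the brain hold, had 99, 90.7 and 89.0 CPM in HD, against 166, 145 and 149 CPM in WT (-0.72 ± 0.08, edgeR adjusted p = 0.000401). Tnfrsf13c, the receptor for a B cell survival factor, had 1.88, 1.86 and 1.62 CPM in HD, against 0.180, 0.258 and 0.0856 CPM in WT (3.37 ± 0.40, adjusted p = 0.000791). Il33 was lower and Tnfrsf13c higher in every HD library than in any WT library. Of 64 interferon-induced genes 4 were higher (6.25%) and 1 lower (1.56%; median 0.27), the higher ones including Ifit2, which binds foreign RNA, at 23.6 ± 2.56 CPM in HD and 15.7 ± 1.61 CPM in WT (adjusted p = 0.0192, and 0.107 without WT replicate 3). None of the 4 was left without HD replicate 2 or 3 or WT replicate 2 or 3, and 8 were higher without cGAS-KO replicate 3. Rnf213, a large ubiquitin ligase that interferon induces, averaged 27.2 ± 1.20 CPM in HD and 18 ± 1.32 CPM in WT (0.59 ± 0.09, adjusted p = 0.00416). Of 29 MHC genes none was called, and 1 was lower without WT replicate 1 or cGAS-KO replicate 3.

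Metabolic and transport genes changed one by one. Of 281 Slc transporters 11 were lower and 3 higher (4.98% called, median 0.01), near the 4.35% called over all genes. With 1 library left out 5 to 16 were lower, the fewest without HD replicate 2 or 3. In the same fits 1 to 13 were higher, the fewest without HD replicate 2. The most of both came without cGAS-KO replicate 3. Slc24a4, a sodium-calcium exchanger, had 21.9, 17.4 and 14.8 CPM in HD, against 34.9, 43.1 and 50.5 CPM in WT (-1.25 ± 0.16, edgeR adjusted p = 0.00152). Slc26a10, which overlaps B4galnt1 on the other strand, averaged 2.14 ± 0.546 CPM in HD and 8.17 ± 1.44 CPM in WT (-1.93 ± 0.22, adjusted p = 0.000579). Slc1a2, the main glutamate transporter of astrocytes, averaged 1331 ± 54.3 CPM in HD and 2103 ± 220 CPM in WT (adjusted p = 0.00736, and 0.0558 without HD replicate 2). It was the member called among 10 astrocyte markers, whose summed level was 3656, 3725 and 3786 CPM in HD and 4796, 4383 and 4327 CPM in WT. Slc1a2 is a large part of that sum, and the median log2 change of the 10 markers was -0.12. Cyp46a1, which turns neuronal cholesterol into a form that leaves the brain, had 115, 110 and 112 CPM in HD, against 159, 179 and 182 CPM in WT (-0.62 ± 0.08, adjusted p = 0.000982). Abca8a, a lipid transporter, was higher at 63.5, 63.2 and 60.5 CPM in HD, against 39.0, 29.5 and 30.9 CPM in WT (0.91 ± 0.11, adjusted p = 0.000877). Abcc12 was lower at 0.613 ± 0.178 CPM in HD and 2.45 ± 0.295 CPM in WT (-1.99 ± 0.25, adjusted p = 0.00106). Pla2g4a, a phospholipase that frees arachidonic acid from membranes, had 8.15, 8.97 and 7.62 CPM in HD, against 4.40, 3.96 and 3.44 CPM in WT (1.07 ± 0.15, adjusted p = 0.00177). Between the groups the values of these genes did not overlap. Housekeeping machinery held almost no calls. None was called among 87 cytosolic ribosomal proteins, 77 mitochondrial ribosomal proteins, 91 nuclear subunits of oxidative phosphorylation, 22 mitochondrially encoded genes and 33 histones, whose median log2 changes were 0.06, 0.05, 0.10, -0.28 and 0.21. Without WT replicate 1, 3 histones were higher, and without cGAS-KO replicate 3, 2 oxidative phosphorylation genes and 1 cytosolic ribosomal gene were higher and 1 histone lower. Of 82 chaperones 4 were higher (4.88%, against 1.28% over all genes) and 0 lower. Among them, Hsp90aa1 averaged 1285 ± 83.4 CPM in HD and 1027 ± 8.49 CPM in WT (edgeR adjusted p = 0.041, and 0.172 without HD replicate 2). However, the higher count was 0 without HD replicate 2, WT replicate 2 or WT replicate 3 and 13 without cGAS-KO replicate 3.

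**Figure D4:**
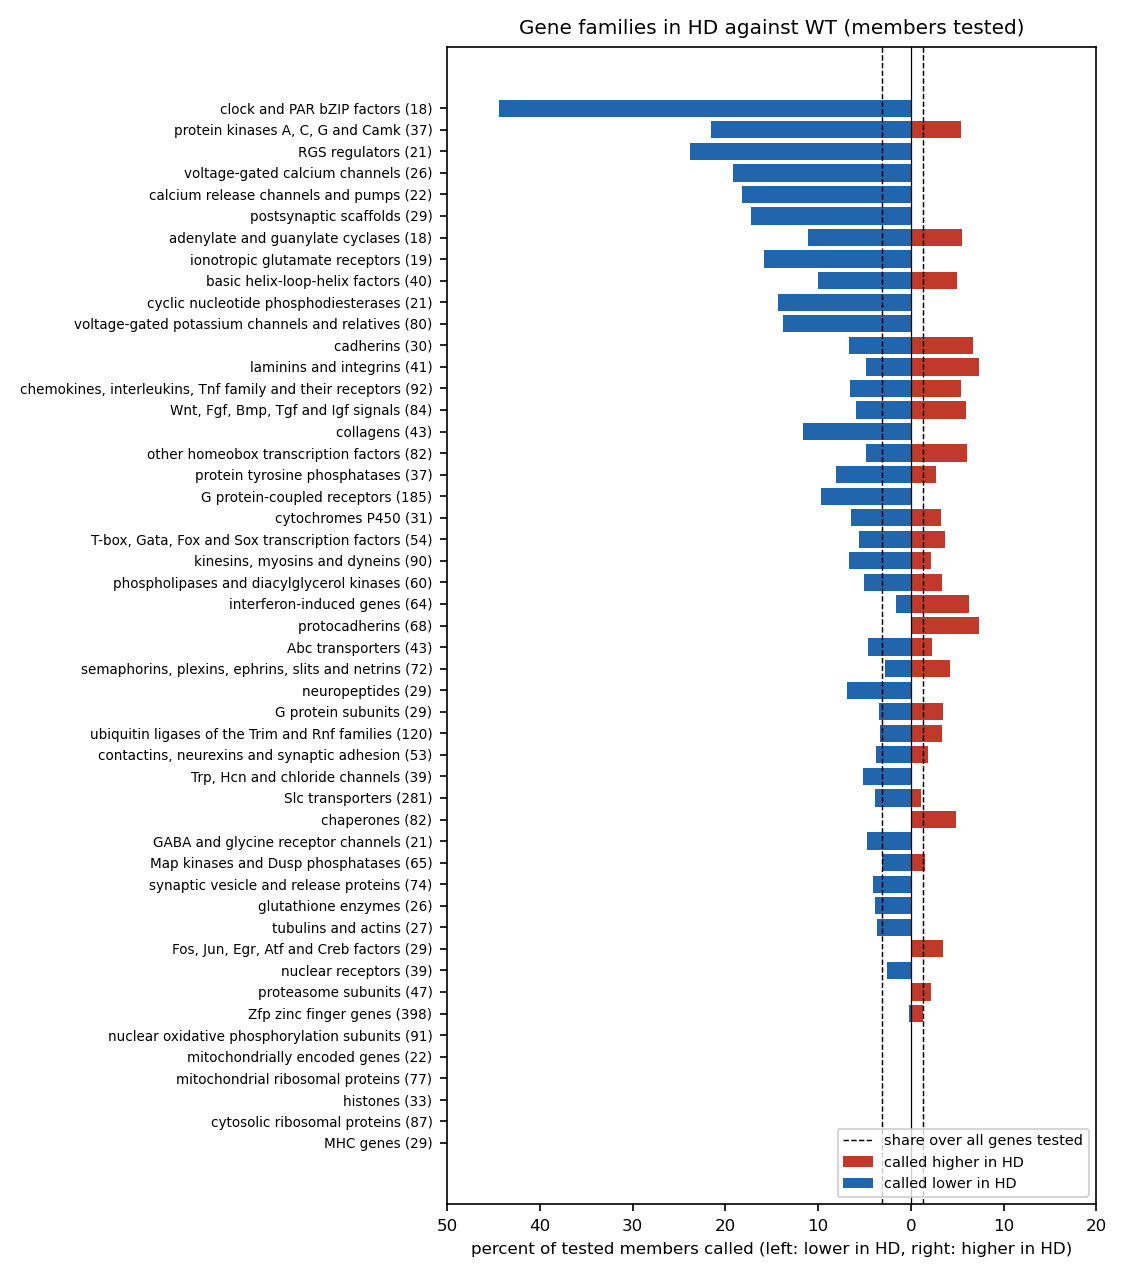
Percent of tested members called lower (blue, left of 0) and called higher (red, right of 0) in HD for most of the gene families with at least 18 tested members, with the number tested in brackets and dashed lines at the shares over all genes (3.07% lower, 1.28% higher). Clock factors, RGS regulators and calmodulin-type kinases extend farthest to the left, protocadherins and chaperones lie to the right of 0, and ribosomal, mitochondrial, histone and MHC genes have no bar.

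Losses outnumbered gains in noncoding genes, as they did over all genes, of which 3.07% were lower and 1.28% higher. Of 821 antisense RNA genes 26 were lower (3.17%) and 2 higher (0.244%). Of 914 long intergenic RNA genes 30 were lower (3.28%) and 11 higher (1.2%). Of 1182 pseudogenes 9 were lower (0.761%) and 6 higher (0.508%). Of 1963 genes of other types 33 were lower (1.68%) and 6 higher (0.306%). Of 15590 protein-coding genes 531 were lower (3.41%) and 236 higher (1.51%). Gm26673, antisense to the potassium channel gene Kcna6, had 1.94, 1.59 and 1.54 CPM in HD, against 5.2, 5.38 and 6.18 CPM in WT (-1.72 ± 0.15, edgeR adjusted p = 8.19e-05). 1810020O05Rik averaged 4.07 ± 0.544 CPM in HD and 10.3 ± 1.03 CPM in WT (-1.34 ± 0.13, adjusted p = 0.000217). Crnde, a noncoding RNA on chromosome 8, was higher at 2.54, 2.66 and 3.14 CPM in HD, against 0.808, 0.482 and 0.756 CPM in WT (2.02 ± 0.27, adjusted p = 0.00153). The kit was directional, but whether counting used strand is not stated, so reads of an antisense gene and its partner cannot be told apart. By count level, not set per length, the 4094 genes with the highest WT means (60.0 to 20100 CPM) held 6.91% called lower and 0.977% called higher, and the 4094 with the lowest 0.684% and 1.12%. By length of the annotated span of protein-coding genes, the longest 3118 (76.9 to 2960 kb) held 4.49% called lower and 2.37% called higher, against 2.92% to 3.37% and 1.06% to 1.73% in the other 4 classes of that size. The test detects smaller changes in genes with more counts, and these shares were not adjusted for it.

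Across the genome the calls were spread over all autosomes, at 3.47% to 5.05% of tested genes. On chromosome X gains outnumbered losses, with 20 genes higher (2.98%) and 6 lower (0.894%) of 671. Pcdh11x, Pcdh19, Plxnb3 and Gucy2f, given above, are X-linked. With high or low Xist as a covariate 19 X-linked genes were higher and 5 lower, and with 1 library left out 9 (WT replicate 2 or 3) to 51 (cGAS-KO replicate 3) were higher and 2 to 18 lower. The X-linked share was not tested against the autosomes. Runs of at least 3 neighbouring tested genes called in the same direction numbered 5. The longest held Hoxc9, Hoxc8, Hoxc6, Hoxc5 and Hoxc4 on chromosome 15, none of them testable without any 1 HD library, where the annotated span of Hoxc5 overlaps those of Hoxc6, Hoxc8 and Hoxc9. The others were Fah, Zfand6 and Folh1 on chromosome 7 and Pcdh11x, Nap1l3 and Cldn34c1 on chromosome X, all higher, and Impg1, Htr1b and D430036J16Rik on chromosome 9 and Kctd17, Tmprss6 and Il2rb on chromosome 15, all lower. In these 4 runs Folh1, Pcdh11x, Impg1 and Tmprss6 were the members called without each library in turn. Impg1, a matrix proteoglycan known from the retina, had 0.488, 0.568 and 0.198 CPM in HD, against 1.27, 2.71 and 3.47 CPM in WT (-2.57 ± 0.44, edgeR adjusted p = 0.00673). Tmprss6, a serine protease known from iron control in the liver, had 0.0837, 0.160 and 0.145 CPM in HD, against 0.808, 1.07 and 1.41 CPM in WT (-3.06 ± 0.52, adjusted p = 0.00663).

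The knock-in locus itself was examined for linked changes. Htt, on chromosome 5, had 144, 130 and 143 CPM in HD, against 170, 174 and 180 CPM in WT (-0.33 ± 0.08, edgeR adjusted p = 0.0319), and its call was lost in 6 of 12 fits without 1 library, with an adjusted p of 0.171 without HD replicate 2. Counts over the whole gene do not tell the knock-in allele from the normal one. Of 198 tested genes within 10 Mb of Htt 6 were lower and 2 higher (4.04%), close to 4.35% over all genes, and in the first 1 Mb 3 of 33 were lower. Zfyve28, an endosomal regulator of a growth factor receptor, averaged 31.2 ± 1.22 CPM in HD and 54.3 ± 11.8 CPM in WT (-0.80 ± 0.14, adjusted p = 0.00833, and 0.0558 without HD replicate 2). Wfs1, a membrane protein of the endoplasmic reticulum whose human gene is mutated in Wolfram syndrome, lay 2.14 Mb away and averaged 99.5 ± 21.8 CPM in HD and 162 ± 3.45 CPM in WT (-0.70 ± 0.13, adjusted p = 0.0099, and 0.0684 without HD replicate 2). The other 6 were Rgs12, Adra2c, Sorcs2 and Gm1043, all lower, and Slbp and Gm2420, both higher, and each lost its call in several fits without 1 library. Cgas, unaltered by design in both groups, averaged 1.15 ± 0.0961 CPM in HD and 1.42 ± 0.133 CPM in WT and was not called (adjusted p = 0.524).

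The same contrast without cGAS gave like changes in most of these genes. In cGAS-KO;HD against cGAS-KO 864 genes were called (4.22%). This comparison shares no library with HD against WT but does share the fitted spread. In both, 521 genes were called, all in the same direction, which is 58.5% of the 890 and 60.3% of the 864. With each pair of groups fitted alone, so that no spread was shared, 932 genes were called in HD against WT. Of these, 264 were called the same way in both comparisons, and 671 were among the 890. Of the 890, 878 (98.7%) had the same sign without cGAS, against 69.9% of the genes not called. C130021I20Rik changed by 6.29 ± 0.33 with cGAS and by 6.05 ± 0.33 without it, Tmc3 by 3.02 ± 0.19 and 3.10 ± 0.19, Ryr1 by -2.27 ± 0.13 and -2.21 ± 0.13, and Slc4a11 by -2.95 ± 0.19 and -2.74 ± 0.19. The clock genes differed more in size, with Dbp at -1.01 ± 0.07 and -0.66 ± 0.07 and Per3 at -0.66 ± 0.09 and -0.25 ± 0.09 (edgeR adjusted p without cGAS = 0.000267 and 0.163), but no clock gene passed the test of the difference. That test, the interaction, called 1 gene of 20470 (0.00489%), while 594 had an unadjusted p under 0.05, 74 of them among the 890. The gene was Mid1-ps1, at 0.841, 0.742 and 1.08 CPM in cGAS-KO;HD libraries and 0.583, 0.337 and 0.557 CPM in cGAS-KO libraries, against the HD and WT values given above. Its interaction was 3.07 ± 0.35 (edgeR adjusted p = 0.0182), and it was not called without WT replicate 2 or 3, HD replicate 1 or 3, cGAS-KO replicate 1 or cGAS-KO;HD replicate 1 or 2. The HD libraries stood alone, and the other 9 lay near 1 CPM or below. Ddx3y, a gene of the Y chromosome, was at 0.0287 and 0.0154 CPM in HD replicates 1 and 2 and at 113 CPM in HD replicate 3, so the level of Mid1-ps1 did not follow it. The 12 genes of opposite sign included Hif3a, a hypoxia-inducible factor subunit (-1.18 ± 0.18 with cGAS and 0.19 ± 0.18 without). Lhx6, a factor of striatal interneurons (-0.51 ± 0.12 and 0.04 ± 0.12, with an edgeR adjusted p of 0.142 in HD against WT without HD replicate 3), chosen after their values were seen, and neither passed the interaction test (edgeR adjusted p = 1.00 for both).

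**Figure D5:**
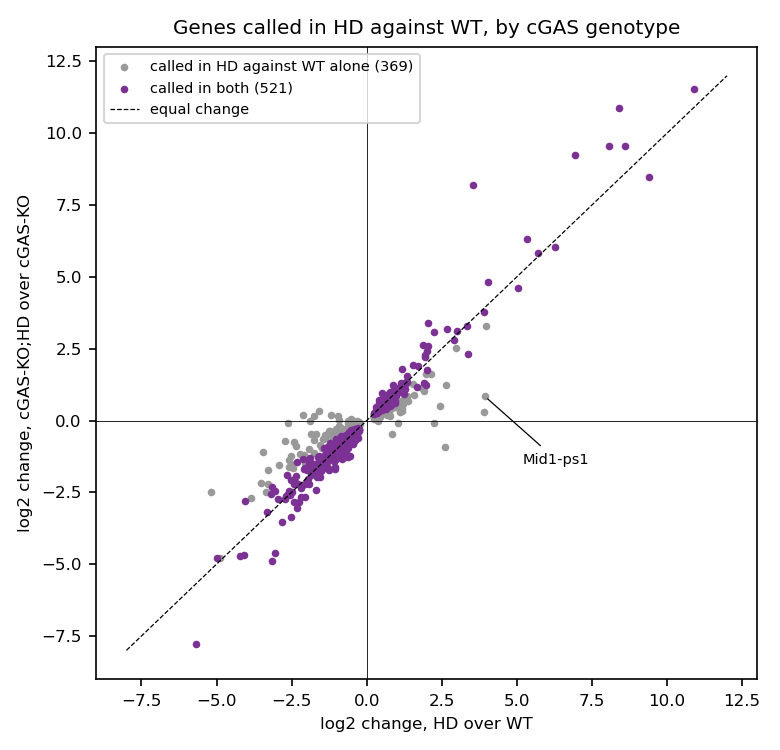
Log2 change of cGAS-KO;HD over cGAS-KO (vertical axis) against that of HD over WT (horizontal axis) for the 890 genes called in HD against WT, with 521 genes called in both in purple and the other 369 in grey. Most points follow the dashed line of equal change, 12 lie in the quadrants of opposite sign, and Mid1-ps1 lies far below the line.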

How the data were processed

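Poly(A) RNA of mouse striatum was sequenced with a directional kit, 1 library per mouse, per the labels' protocols. The authors deposited whole-number counts per Ensembl gene, not normalized, and the sources used here do not give the aligner, counter, genome build or use of strand. Total counts were 59195327 to 72765623 over 12 libraries. Counts were fitted with edgeR 4.0.16 in R 4.3.3 (robust quasi-likelihood, TMM scaling, 1 mean per group, 12 libraries, 8 residual degrees of freedom), after keeping genes with at least 10 counts in at least 3 of the 6 HD and WT libraries, and p-values were adjusted by Benjamini-Hochberg over all genes kept. Values of genes are CPM after TMM scaling, except those of Ddx3y. Ddx3y values and all summed marker levels are CPM over total counts without TMM scaling. The sign ± stands for SD after means (n = 3 per group) and for SE after log2 changes. Common dispersion was 0.0316, a biological variation of 17.8%. Alternatives used DESeq2 1.42.0, limma 3.58.1, other filters, other thresholds and fewer libraries. The script was tested on simulated data. Names, types and positions came from GENCODE M21 on GRCm38 (55227 of 55487 IDs matched) and promoters from RefSeq (13313 of 20470 genes matched by symbol). Lists, families and named genes were chosen with earlier results of these data known. Named genes taken by smallest p, largest difference, largest log2 change or gene type were called, averaged at least 1 CPM and did not overlap between the groups. Up to 3 called members per family, members of runs and the called genes nearest to Htt were also named, with no limit on level. Htt and Cgas were always named, and a few others are said to be chosen after their values were seen. Further lists were endothelial and mural cells, fibroblasts and ependymal cells (0 members called in each), striatal interneurons (2 of 12 lower), astrocytes (1 of 10 lower), oligodendrocytes (1 of 10 lower), oligodendrocyte precursors (1 of 8 higher), erythrocytes (1 of 6 tested lower) and sex-linked genes (0 of 8).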

Additional observations from a re-analysis of the deposited data

Results flagged for a closer look

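Mid1-ps1, a pseudogene annotated on chromosome Y, was the gene whose knock-in effect differed with and without cGAS by edgeR's interaction test over all 20470 genes (log2 difference 3.07 ± 0.35, adjusted p = 0.0182). Its log2 change was 3.92 ± 0.25 in HD over WT and 0.85 ± 0.25 in cGAS-KO;HD over cGAS-KO. The level was 6.93, 5.47 and 6.82 CPM in HD, against 0.494, 0.396 and 0.371 CPM in WT, and all 6 libraries without cGAS lay between 0.337 and 1.08 CPM. Its annotated span overlaps Gm21860 on the other strand. The difference was not called in 7 of 12 fits without 1 library.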

How the results depend on the processing

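Every called gene that could be tested kept its direction under every alternative run. Without 1 library, 246 to 1936 genes were called, 78 to 700 higher, 168 to 1236 lower, 134 to 493 past 2-fold and 198 to 766 in both backgrounds, and 0 or 1 gene was called for the interaction. DESeq2's Wald test called 1801 genes, 653 higher and 1148 lower, 963 of them in both backgrounds. Deviations from the group mean in same-numbered HD and WT libraries had correlations of -0.0695, -0.111 and 0.0111. Differently numbered libraries had -0.133 to 0.185. With 3 mice per group these values cannot tell whether replicate numbers pair the mice. A fit with the replicate number as a block called 565 genes, 153 higher and 412 lower, with 346 in both backgrounds. At an adjusted p under 0.01, 288 were called, 77 higher, 211 lower, 156 past 2-fold and 180 in both. Fitting only the groups compared called 932 genes, 671 of them among the 890, and left 264 in both. Without WT replicate 1 and cGAS-KO replicate 3 together, an alternative chosen after seeing the data, 3579 genes were called, 1490 higher, 2089 lower, 758 past 2-fold, 1061 in both backgrounds and 93 for the interaction. DESeq2 called 2 genes for the interaction, limma-voom 0 and an adjusted p under 0.01 also 0. The cause was not tested. Of 181 genes called and tracked by name, 90 to 181 of those tested kept their call without 1 library. Counts with no low-count filter (768), limma-voom (869) and high or low Xist as a covariate (727) were within 1.5 times of 890. Genes near 10 counts per library were measured with the least precision.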
